A study of Mus musculus with 4 samples.

Results

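Retinoic acid (RA) is made inside cells from vitamin A, and 9 genes for its uptake, synthesis, binding and breakdown were followed in the Illumina TruSeq data: Stra6, Crabp1, Crabp2, Rdh10, Dhrs3, Aldh1a2, Aldh1a3, Cyp26a1 and Cyp26b1. They were found by gene symbol among the 24421 genes of the count files, and all 9 were present with a mean normalized count above 5. The libraries came from R1 mouse embryonic stem cells (ESCs), an established line, with 2 biological replicates of Undiff, which received no RA, and 2 of Day4, which were embryoid bodies first grown for 4 days without leukaemia inhibitory factor and then kept for 4 days with RA. Undiff is described as cells maintained with leukaemia inhibitory factor in the methods of the study, and as embryoid bodies in the sample labels. The RA dose is 2 mM in the sample labels and 2 µM in the design text. By the methods, Day4 differed from Undiff in RA, in time in culture, in embryoid body formation and in the absence of leukaemia inhibitory factor. The effects of these cannot be told apart, since the methods of the study describe no Day4 cultures without RA. The cells of both states were wild-type R1, with no transgene named in the labels.

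Vitamin A travels in blood as retinol bound to a carrier, and Stra6 is a membrane receptor that lets retinol into cells. Retinol is oxidized to retinaldehyde by Rdh10, and Dhrs3 reduces retinaldehyde back to retinol. Retinaldehyde is then oxidized irreversibly to RA by enzymes of the Aldh1a family, of which Aldh1a2 is the main form of the early embryo. Crabp1 and Crabp2 are small cytoplasmic proteins that bind RA, and Crabp2 is known to pass it to the nuclear RA receptors. Cyp26a1 and Cyp26b1 are cytochrome P450 enzymes that hydroxylate RA for its removal. Several of these genes are known targets of RA itself, and Cyp26a1 carries a well-studied RA response element near its start, where a receptor dimer binds a direct repeat of a hexamer.

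The promoters of both breakdown enzymes are shown because RA response elements have been described at Cyp26a1 and because the enzymes differed widely in response. Each window covers 250 bases before and 50 bases after a RefSeq transcript start on GRCm38.p6, read 5′ to 3′ along the gene. RefSeq windows were matched for 6 of the 9 genes, with 11 starts among them, and not for Rdh10, Aldh1a3 and Crabp2. Capitals mark the hexamers of a direct repeat with a spacer of 5 bases (DR5).
Cyp26a1 (chr19:37697558-37697857, plus strand): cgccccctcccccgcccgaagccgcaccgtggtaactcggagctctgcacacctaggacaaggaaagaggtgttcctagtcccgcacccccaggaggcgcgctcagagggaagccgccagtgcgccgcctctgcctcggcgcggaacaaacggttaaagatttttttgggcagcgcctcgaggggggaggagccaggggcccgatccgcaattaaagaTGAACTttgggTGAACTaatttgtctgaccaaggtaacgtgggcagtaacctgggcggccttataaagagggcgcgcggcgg
Cyp26b1 (chr6:84593761-84594060, minus strand): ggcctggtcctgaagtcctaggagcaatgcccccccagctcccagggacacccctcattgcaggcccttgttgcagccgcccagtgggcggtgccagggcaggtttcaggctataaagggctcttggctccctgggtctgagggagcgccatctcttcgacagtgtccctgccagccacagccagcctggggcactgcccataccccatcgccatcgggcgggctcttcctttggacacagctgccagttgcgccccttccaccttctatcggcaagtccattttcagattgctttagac
The hexamers searched were AGGTCA and its close relative AGTTCA, together with the forms that open with G, which are GGGTCA and also GGTTCA, on both strands. In the Cyp26a1 window, a DR5 lay on the minus strand between bases -32 and -16 from the start, at chr19:37697776-37697792, and reads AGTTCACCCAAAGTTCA on that strand. A DR5 was held by 32 of all 32851 promoter windows of that length (0.0974%), and by 1 of the 11 windows of these genes. Repeats with a spacer of 1 base (DR1, 0.222% of all windows) or 2 bases (DR2, 0.268%) were in none of the 11. Single hexamers, which overlap the repeats, were in 43.7% of all windows and in 2 of the 11, the Cyp26a1 window and 1 of the Stra6 windows. The Cyp26b1 window held no such hexamer, which describes these 300 bases only. The GENCODE vM21 annotation places the start of Cyp26b1 at 84593908, inside this window and upstream of the RefSeq start it is built on.

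The 4 libraries held between 32099074 and 47730944 fragments counted on genes. Counts were scaled by TMM, and normalized counts are counts brought to a common effective library size. The states were tested against each other with the quasi-likelihood method of edgeR on the 19891 genes with a count. A differentially expressed gene (DEG) had to change at least 2-fold in either direction, with an adjusted p-value of 0.05 or less and 5 or more normalized counts on average. Adjusted p-values below are Benjamini-Hochberg values from this edgeR fit. They rest on a variance shared across genes, since an exact permutation test of 2 libraries against 2 cannot give a p below 0.333.

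In Day4, 7 of the 9 genes were DEGs with higher expression, while 22.2% of all genes tested were. These were Stra6, Crabp2, Rdh10, Dhrs3, Aldh1a2, Cyp26a1 and Cyp26b1, with genes of uptake, synthesis and breakdown among them. None of the 9 was a DEG with lower expression by edgeR or DESeq2, compared with 20.6% of all genes tested by edgeR. All 9 met the limit of 5 normalized counts on average, as did 16472 of the 19891 genes tested. DEGs in either direction were 51.7% of those 16472 genes and 42.8% of all genes tested. Crabp1 was lower (adjusted p = 8.0e-06 by edgeR), but by less than 2-fold. The median log2 fold change was 2.84 over the 9 genes and -0.03 over all genes tested. Since the libraries are from bulk RNA, a change in the share of cells that express a gene and a change in RNA per cell cannot be told apart.

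**Figure D1:**
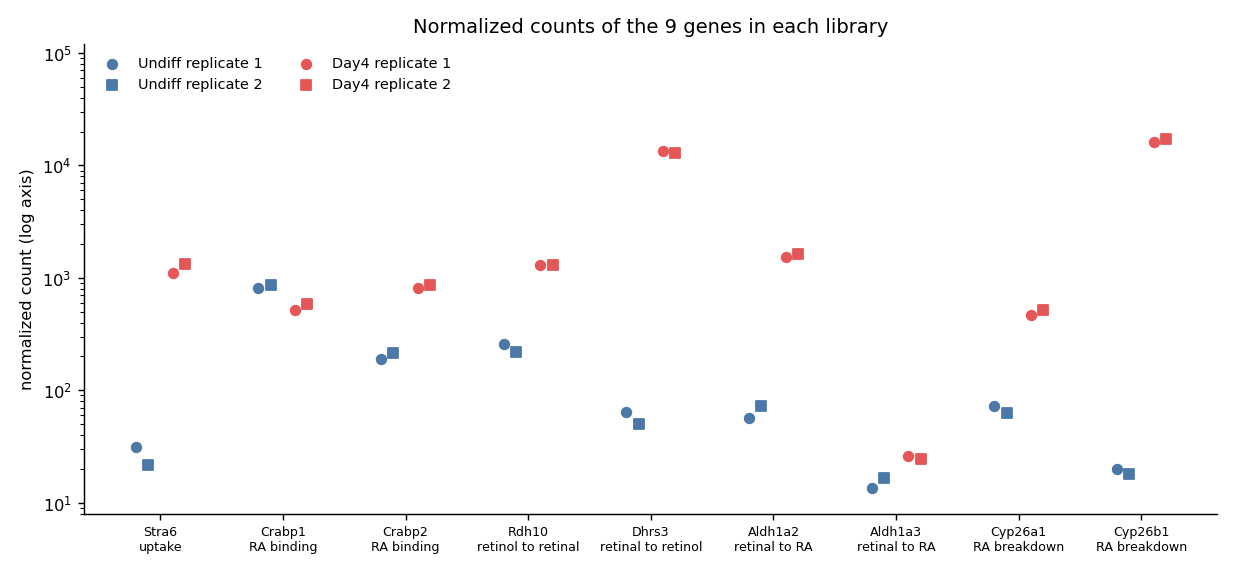
Normalized counts (log axis) of the 9 genes in each of the 4 libraries, with circles for replicate 1 and squares for replicate 2, Undiff in blue and Day4 in red. The states lie apart for each gene, Cyp26b1 and Dhrs3 rise to between 12859 and 17168 in the Day4 libraries, and Crabp1 is the gene that lies lower in Day4.

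Stra6, the retinol receptor (chromosome 9, 58129088 to 58153996 of GRCm38, plus strand, exons of its RefSeq transcripts), had 31.3 and 21.5 normalized counts in Undiff replicates 1 and 2, and 1115 and 1320 in the Day4 replicates. Both Day4 libraries were far above both Undiff libraries. Its mean rose from 26.4 ± 6.88 to 1217 ± 145 (SD, n = 2 each), 46.1-fold, or 5.51 ± 0.16 on the log2 scale (± standard error; adjusted p = 2.0e-12). The replicates of Stra6 differed more, relative to their mean, than those of the other 8 genes in both states, and leaving out single libraries gave log2 fold changes from 5.29 to 5.82.

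Of the RA-binding proteins, Crabp2 (chromosome 3, 87948666 to 87953376, plus strand) had 189 and 214 normalized counts in Undiff and 806 and 861 in Day4. It rose from 201 ± 18.1 to 834 ± 38.9 (SD, n = 2 each), which is 4.14-fold or 2.06 ± 0.09 in log2 units (± standard error; adjusted p = 1.4e-10). Crabp1 (chromosome 9, 54764748 to 54773110, plus strand) went the other way, with 815 and 860 in Undiff and 521 and 580 in Day4. Both Day4 libraries of Crabp1 lay below both Undiff libraries. The change of -0.60 in log2 units (95% interval -0.76 to -0.43, adjusted p = 8.0e-06) was beyond the replicate error and short of the fold required of a DEG. Thus the pair of binding proteins, which share the ligand, moved in opposite directions.

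Among the enzymes that interconvert retinol and retinaldehyde, Rdh10, the oxidizing enzyme (chromosome 1, 16105774 to 16133734, plus strand), had 259 and 220 normalized counts in Undiff and 1296 and 1305 in Day4. The rise of Rdh10 was 5.42-fold, or 2.43 in log2 units, with a standard error of 0.08 (adjusted p = 8.9e-12). Both replicates of Day4 lay well above those of Undiff. Dhrs3, the reducing enzyme (chromosome 4, 144892827 to 144928209, plus strand), had 63.6 and 50.3 in Undiff and 13286 and 12859 in Day4. Starting below Rdh10 in both Undiff libraries, Dhrs3 ended about an order of magnitude above it in both Day4 libraries. From 56.9 ± 9.41 to 13072 ± 302 (SD, n = 2 each), the mean of Dhrs3 changed by 7.83 in log2 units, with a standard error of 0.08 (adjusted p = 2.4e-16).

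For the enzymes that form RA from retinaldehyde, the response was divided. Aldh1a2 (chromosome 9, 71215789 to 71296243, plus strand) had 57.3 and 73.0 normalized counts in Undiff and 1528 and 1625 in Day4. It rose 24.2-fold, or 4.61 in log2 units with a standard error of 0.11 (adjusted p = 2.0e-13), and the states were far apart. Aldh1a3, a related enzyme known from the eye and nasal region of the embryo (chromosome 7, 66390890 to 66427517, minus strand), had 13.5 and 16.8 in Undiff and 26.1 and 24.6 in Day4. These were 13, 14, 25 and 32 fragments before scaling, so that counting error is large. Both Day4 libraries of Aldh1a3 were above both Undiff libraries, but the log2 fold change of 0.74 had a 95% interval from -0.01 to 1.49 (adjusted p = 0.069) and Aldh1a3 was not a DEG. Its adjusted p-value was between 0.049, with library totals in place of TMM, and 0.37, with DESeq2 and a prior on the fold change, and its log2 fold change was below 1 in each alternative run.

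The RA-degrading enzymes both rose, by very different amounts. Cyp26a1 (chromosome 19, 37697798 to 37701536, plus strand) had 72.9 and 63.4 normalized counts in Undiff and 465 and 514 in Day4. Both Day4 libraries were above both Undiff libraries, by 7.18-fold on average, or 2.84 in log2 units with a standard error of 0.13 (adjusted p = 1.7e-10). Cyp26b1 (chromosome 6, 84571944 to 84593908, minus strand, exons of its RefSeq transcripts) had 19.8 and 17.9 in Undiff and 16233 and 17168 in Day4. In Undiff it was below Cyp26a1 in both replicates, and in Day4 it was the member with the most counts. Its mean rose 885-fold, from 18.9 ± 1.31 to 16701 ± 661 (SD, n = 2 each), or by 9.78 in log2 units with a standard error of 0.09 (adjusted p = 1.3e-16). The Undiff values of Cyp26b1 come from 19 and 15 fragments, which is above the floor of 3 counts. Cyp26a1, whose window holds the DR5 shown above, was the breakdown enzyme with the smaller rise. Whether the DR5 has a part in the size of the rise was not tested.

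**Figure D2:**
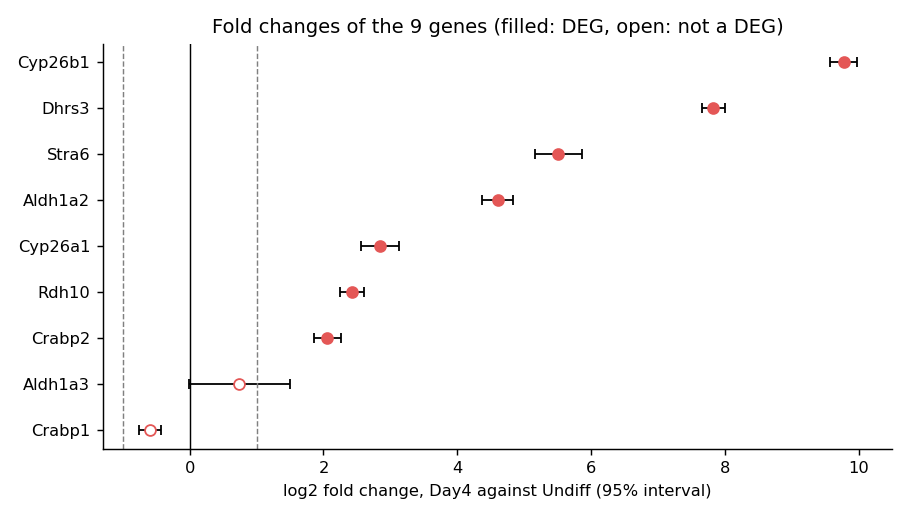
Log2 fold changes of the 9 genes in Day4 against Undiff from the edgeR fit, with 95% intervals as bars, the limits of -1 and 1 as dashed lines, DEGs as filled circles and others as open circles. The values run from -0.60 for Crabp1 to 9.78 for Cyp26b1, and the interval of Aldh1a3 includes 0.

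The exons of none of the 9 genes overlapped those of another counted gene in GENCODE vM21, when limited to transcripts with a RefSeq record, so that counts shared with a neighbour or an antisense gene were not found for them. In GENCODE vM21 the Stra6 locus as a whole starts at 58063788, upstream of its RefSeq transcripts. The study lists Stra6 among the genes with differential exon usage in its Illumina data. Gene counts do not separate isoforms, so the rise of Stra6 and its level per length cover all its transcripts together.

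To compare levels between genes, CPM on the effective library size was divided by the kilobases of exon of each gene. In Undiff, Crabp1 had the highest level per length of the 9 at 27.9 ± 1.07 CPM per kilobase (SD, n = 2), followed by Crabp2 at 5.78 ± 0.519 and Rdh10 at 1.79 ± 0.207. Cyp26a1 followed at 1.02 ± 0.101, ahead of Aldh1a2, Dhrs3 and Stra6, while Cyp26b1 and Aldh1a3 were lowest at 0.118 ± 0.00818 and 0.118 ± 0.0176. Neighbours in this order had separate replicate ranges, except Aldh1a2 with Dhrs3 and Cyp26b1 with Aldh1a3. The Undiff order thus opened with the binding proteins.

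In Day4 the order of levels per length opened with Dhrs3 at 144 ± 3.34 CPM per kilobase and Cyp26b1 at 104 ± 4.13 (SD, n = 2 each). Crabp2 at 23.9 ± 1.12, Aldh1a2 at 18.6 ± 0.804 and Crabp1 at 18.3 ± 1.38 came next, followed by Rdh10, Stra6, Cyp26a1 and, at 0.197 ± 0.00848, Aldh1a3. The ranges of Aldh1a2 and Crabp1 overlapped, as did those of Rdh10 and Stra6, and the other neighbours were apart. Dhrs3 and Cyp26b1 together made up 2.21% and 1.70% of the summed level of the 9 genes in the Undiff replicates, and 74.8% and 73.4% in the Day4 replicates. The summed level itself went from 38.3 ± 1.27 to 336 ± 5.71 CPM per kilobase. An enzyme that lowers retinaldehyde and an enzyme that removes RA thus held most of the RNA of these genes in Day4, per length of exon. Dhrs3 and Cyp26b1 were summed because they were highest in Day4, so that a large joint share there follows from the choice and was not tested.

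**Figure D3:**
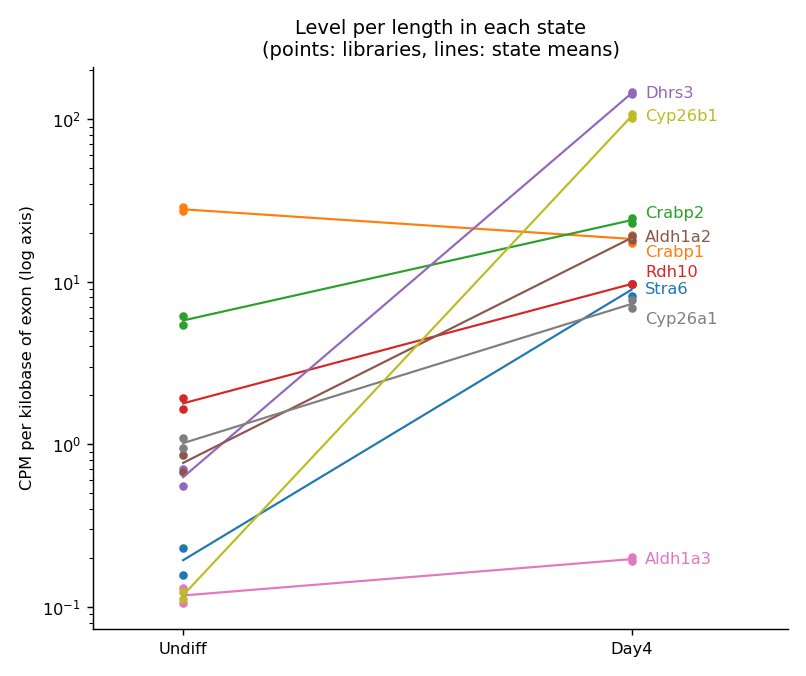
Level of each gene in CPM per kilobase of exon (log axis) in Undiff and Day4, with points for libraries and lines between the means of the states. Crabp1 leads in Undiff at 27.9 and Dhrs3 and Cyp26b1 lead in Day4 at 144 and 104, while Aldh1a3 stays lowest.

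Summed over breakdown enzymes, the level of Cyp26a1 and Cyp26b1 was 1.21 and 1.06 CPM per kilobase in the Undiff replicates and 108 and 115 in the Day4 replicates. For the RA-forming pair Aldh1a2 and Aldh1a3, the sums were 0.781 and 0.991 in Undiff and 18.2 and 19.4 in Day4. The ratio of the breakdown sum to the RA-forming sum was therefore 1.55 and 1.07 in Undiff and 5.94 and 5.94 in Day4, and the ranges did not overlap. These sums were formed after the values had been seen, are RNA levels and not enzyme activities, and were not tested.

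Ratios of related genes within a library do not depend on the scaling between libraries, and 4 pairs were compared in this way, with 0.5 added to each count. The log2 ratio of Cyp26a1 to Cyp26b1 counts was 1.85 and 1.79 in Undiff and -5.12 and -5.06 in Day4, a difference of -6.91. Per length of exon, Cyp26b1 accordingly went from 10.2% and 10.6% of the pair to 93.6% and 93.3%. The predominant breakdown enzyme RNA changed from Cyp26a1 to Cyp26b1 between the states.
The log2 ratio of Dhrs3 to Rdh10 was -2.02 and -2.12 in Undiff and 3.36 and 3.30 in Day4, a difference of 5.40, so that the pair also changed order. Crabp1 to Crabp2 went from 2.11 and 2.00 to -0.63 and -0.57, a difference of -2.66. Per length, Crabp1 made up 83.4% and 82.3% of the binding proteins in Undiff and 42.9% and 43.9% in Day4. Aldh1a2 to Aldh1a3 was 2.04 and 2.08 in Undiff and 5.84 and 6.03 in Day4, a difference of 3.87, and Aldh1a2 was the larger in each library. In each of the 4 pairs the states were separated by many times the SD of the replicates, which was at most 0.129. The two-sided exact permutation p was 0.333 for each pair, and 0.333 after adjustment over the 4 pairs, the smallest that the design allows.

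**Figure D4:**
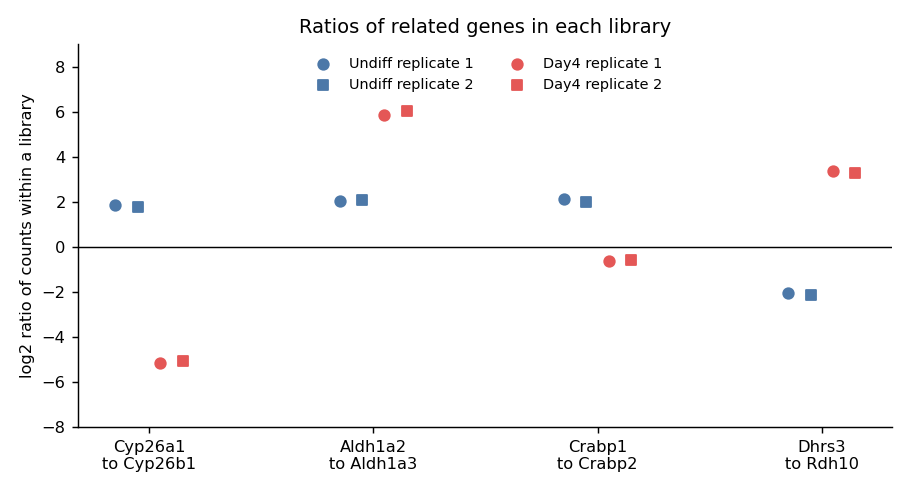
Log2 ratios of counts of related genes within each library, with Undiff in blue, Day4 in red, circles for replicate 1 and squares for replicate 2. The ratios of Cyp26a1 to Cyp26b1, Crabp1 to Crabp2 and Dhrs3 to Rdh10 cross 0 between the states, and that of Aldh1a2 to Aldh1a3 stays above 0.

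A wider list of 38 other genes of retinoid transport, storage and metabolism was read in the same fit. Of the 35 with a count, 13 were DEGs higher in Day4 (37.1%), 7 were DEGs lower (20%) and 15 were not DEGs, beside 22.2% and 20.6% of all genes tested, and their median log2 fold change was 0.45. In 8 of them 1 state was at or under 3 counts in both libraries, and in 3 both states were. With the 8 at the bound that 3 counts allow and the 3 left out, the median was 0.52. The more abundant of the higher DEGs (5 CPM or more on average) numbered 5, among them Cyp1b1, Lrat, Rdh14 and Dhrs4. Lrat, which esterifies retinol for storage, had 9.38 and 5.98 in Undiff and 426 and 536 in Day4 (log2 fold change 5.94, standard error 0.25, adjusted p = 8.2e-11). Cyp1b1, a cytochrome P450 that can oxidize retinol and retinaldehyde, had 135 and 101 in Undiff and 3489 and 3463 in Day4, a log2 fold change of 4.87. The log2 fold changes of Rdh14 and Dhrs4, reductases that act on retinoids, were 2.20 and 1.04. Lrat, the enzyme of ester storage, thus rose along with Stra6.

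The lower DEGs of the wider list at this abundance were Retsat, a retinol saturase (log2 fold change -1.35, adjusted p = 6.0e-10), and Adh5, an alcohol dehydrogenase with other main substrates (log2 fold change -1.06, adjusted p = 1.9e-11). Rbp7 and Rlbp1, which bind retinol and retinaldehyde and were picked after their values were seen, fell by 5.01 and 5.89 on the log2 scale. Cyp26c1, the third enzyme of the Cyp26 family and also picked later, had 3.13 and 0 normalized counts in Undiff and 8.36 and 3.84 in Day4 and was not a DEG. Aldh1a1, picked in the same way, had 6.25 and 3.59 in Undiff and 40.7 and 39.2 in Day4, so that it stayed far below Aldh1a2 in counts although it was a DEG (log2 fold change 2.96, standard error 0.41, adjusted p = 1.9e-05).

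Genes known to respond to RA were read as a second list of 9, of which 7 were DEGs higher in Day4 and 1 was lower, beside 22.2% and 20.6% of all genes tested, with a median log2 fold change of 3.25. Rarb, an RA receptor, had 12.5 and 12.0 normalized counts in Undiff and 9238 and 9419 in Day4 (log2 fold change 9.56, standard error 0.09, adjusted p = 2.3e-16), beside 9.78 for Cyp26b1. Nrip1, a corepressor of nuclear receptors, and Tgm2, a transglutaminase, rose by 3.37 and 3.25 on the log2 scale. Cdx1, a homeobox gene of the posterior embryo, was the lower DEG, with 25.0 and 21.5 in Undiff and 3.13 and 7.68 in Day4 (adjusted p = 0.0015). Stra8, a gene of meiotic entry, had 126 and 117 in Undiff and 149 and 79.1 in Day4, and its ranges overlapped (log2 fold change -0.16, adjusted p = 0.56). Cdx1 and Stra8 are named as the exceptions of the list, after their values were seen.

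By profile over the 4 libraries, the genes nearest to Cyp26a1 among the 13734 with a mean of at least 1 CPM were Arsg, Stab2 and Sox17, at Euclidean distances of 0.0264, 0.0708 and 0.0758 between centred log2 values of normalized counts plus 1. Their log2 fold changes were 2.86, 2.89 and 2.92, beside 2.84 for Cyp26a1. With 2 libraries per state, this likeness mainly reflects an equal fold change.

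Cell type markers moved with the states as well, and their counts of DEGs stand beside 22.2% of all genes tested that were higher and 20.6% that were lower. All 9 pluripotency markers were lower in Day4, and their summed level went from between 4769.5 and 4775 CPM in Undiff to between 21.1 and 26.3 CPM in Day4. Of 8 endoderm markers, 6 were higher and 2 lower, with sums of 36.2 to 42.9 CPM in Undiff and 554 to 565 CPM in Day4, and Afp, named because its count was 0 in both Undiff libraries, was the marker without a fragment there. Of 9 mesoderm markers, 5 were higher and 2 lower, with sums of 13.3 to 13.4 CPM and 325 to 332 CPM. Of 9 neural markers, 3 were higher and 4 lower, with sums of 152 to 155 CPM and 151 to 165 CPM. Of 7 fibroblast markers, 6 were higher and 1 lower, with sums of 58.4 to 63.1 CPM and 1554 to 1712 CPM. The sums weight the most abundant markers. In Day4, Gata4 and Gata6 had means of 9621 and 10321 normalized counts among the endoderm markers, and no other marker of that list was above 157. Col3a1 had 38297 among the fibroblast markers. The lower endoderm markers were Amn and Cubn, and the lower fibroblast marker was Thy1. Cubn, the most abundant endoderm marker in Undiff, went from a mean of 1156 to 91.8 normalized counts. The rise of the endoderm sum thus rests on Gata4 and Gata6. The 7 retinoid genes that rose did so together with the mesoderm and fibroblast sums, though not with every marker in them. They also rose together with Gata4 and Gata6, which hold most of the endoderm sum in Day4. The part of cell composition in their rise was not tested. Fragments on no annotated gene also differed, at 12.1% and 13.2% of all fragments in the files, unassigned ones included, in Undiff and 7.50% and 7.74% in Day4, and their part was not tested.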

How the data were processed

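Adapters were removed with cutadapt and fragments placed on mm10 by STAR 2.4.2a before htseq-count tallied those with 1 alignment per gene, all by the authors. The deposited counts are integers listed by gene symbol and are not normalized, and the strand option used for TruSeq genes is not given in the sources used here. Multiply aligned fragments are not counted, which can lower genes with near-identical copies. Summary lines for unassigned fragments were left out of library sizes and tests.

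Groups were taken from the sample titles. Counts were tested in R 4.3.3 with edgeR 4.0.16 (TMM, glmQLFit with legacy = FALSE, glmQLFTest) on all genes with a count, without a replicate term. The code was checked on simulated data with 200 changed genes. Since 8522 genes were DEGs here, that check does not cover scaling or error rates under so wide a change. Standard errors are the log2 fold change divided by the square root of F. The study used DESeq2, and DESeq2 1.42.0 was run as an alternative, next to other scalings, filterByExpr, a replicate block, no minimum count and each library left out. The floor was 3 counts. The intervals given are on log2 fold changes and were built from the standard errors of the edgeR fit. They therefore include the variation between replicates as that fit estimates it, and not counting error alone. The replicates were grown and treated separately according to the methods, and their counts differed by more than counting noise.

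Named genes were all 9 members, DEGs of the retinoid and RA-response lists with a mean of at least 5 CPM and the 3 profile neighbours of Cyp26a1. Others are named as picked after their values were seen, or as the exceptions of a list. Among the markers, Afp is named for its count of 0, and Gata4, Gata6 and Col3a1 for their large part in the sums. Of the genes that met this rule, 2 are not reported here. The members and lists were chosen with earlier results of these data known. Positions and exon lengths are from GENCODE vM21 (GRCm38, the assembly of mm10), matched by symbol, with lengths over exons of transcripts that have a RefSeq record. The authors counted on the iGenomes UCSC annotation instead. Promoters are from RefSeq (GRCm38.p6).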

Additional observations from a re-analysis of the deposited data

How the results depend on the processing

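The count of 7 DEGs among the 9 genes, all higher, was obtained under each of the 12 alternatives run, and the 8 DEGs among RA-response genes likewise. The DEGs among other retinoid genes numbered 20 and ranged from 18 to 24, and those among all genes numbered 8522 and ranged from 8114, with DESeq2 and a prior on the fold change, to 9257 without a minimum count. With each library left out in turn, when the lone library of a state is assumed to vary like the other state, the counts were 18 to 20 among other retinoid genes and 8306 to 8410 among all genes. No log2 fold change of the 9 genes changed its sign or its DEG call. The dispersion estimate of edgeR (legacy = FALSE) was chosen after the data were seen, because the older estimate tried before it gave p-values of 0 for some genes, and that older estimate, added as an alternative, gave 8518 DEGs. DESeq2 size factors and library totals in place of TMM shifted the median gene by -0.04 and 0.07 on the log2 scale. With 3 added to each count in place of 0.5, the difference in the log2 ratio of Cyp26a1 to Cyp26b1 was -6.77, because the added count is a larger part of the few Undiff fragments of Cyp26b1. Depth limits Aldh1a3 most, with at most 32 fragments in a library.

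Both states use the replicate numbers 1 and 2, with no batch named for them, and the deviations of same-numbered libraries from their group means were not correlated across genes (r = -0.01). With the replicate block, 8514 genes were DEGs, 7 of the 9 genes, 20 of the other retinoid genes and 8 of the RA-response genes among them, and no other call on the 9 genes changed.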
